A study of Mus musculus with 9 samples.

Results

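The Argonaute genes encode the proteins that carry small guide RNAs to messenger RNAs. Members were chosen by Ensembl identifier from a list of 4, Ago1 to Ago4, and 2 of these 4 matched a row of the deposited value table of 12188 genes. These are Ago3, listed as ENSMUSG00000028842_at, and Ago4, listed as ENSMUSG00000042500_at. Ago1 (ENSMUSG00000041530_at) and Ago2 (ENSMUSG00000036698_at) were not analysed here. The symbols come with the identifiers in that list, because no other identifier of the table could be paired with a symbol. The samples were dorsal telencephalon of C57Bl6/J mouse embryos at E13.5, a stage counted in days of embryonic development. This forebrain region later forms the cerebral cortex. One group held 5 conditional Dicer knockouts, all labelled male and described as depleted of microRNAs (knockouts 5, 7, 9, 10 and 11). The other held 4 controls, labelled as not depleted of them, of which controls 1 and 2 were female, controls 3 and 4 male. The titles of the controls begin with HTZ, a prefix the labels do not explain, so they are not taken to be wild type. The Cre driver and the Dicer allele were not stated in the labels used, and all that both groups are labelled to share is strain, stage and tissue. Total RNA of each embryo was measured on a 1-colour array. The embryos are described as partly littermates, without saying which, so each test treats them as independent.

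Dicer cuts microRNA precursors into short duplexes, 1 strand of which is loaded into an Argonaute protein. The loaded protein then pairs with complementary sites in messenger RNAs and, through its TNRC6 (GW182) partners, lowers their translation and stability. Mammals have 4 members of this clade, and AGO2 is the one best known for cutting a fully matched target itself. AGO3 and AGO4 load microRNAs as well and are known mainly for silencing without cutting. The Dicer knockouts are described as depleted of microRNAs, the guides of these proteins, and how far was not measured here. The arrays report the messenger RNAs of Ago3 and Ago4 in that state, not the proteins.

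In mouse the protein-coding genes Tekt2, Ago3, Ago1, Ago4 and Clspn follow each other on chromosome 4, with the 3 Argonaute genes on the minus strand, whereas Ago2 lies on chromosome 15 (RefSeq, GRCm38.p6). The 250 bases before the annotated start are shown for both measured members, since their levels are compared array by array below and they are near neighbours with separate promoters. The Ago3 window is chr4:126429543-126429792 and the Ago4 window chr4:126533459-126533708, both minus strand. Sequences run 5′ to 3′ on the gene's own strand, and capitals mark GGGCGG and its reverse complement CCGCCC, the core of the GC box that SP-family factors are known to bind.
Ago3: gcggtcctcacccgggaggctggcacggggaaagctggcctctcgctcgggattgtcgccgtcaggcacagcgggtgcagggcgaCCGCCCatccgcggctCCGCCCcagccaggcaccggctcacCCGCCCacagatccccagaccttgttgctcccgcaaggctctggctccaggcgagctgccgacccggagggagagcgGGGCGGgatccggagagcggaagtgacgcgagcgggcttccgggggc
Ago4: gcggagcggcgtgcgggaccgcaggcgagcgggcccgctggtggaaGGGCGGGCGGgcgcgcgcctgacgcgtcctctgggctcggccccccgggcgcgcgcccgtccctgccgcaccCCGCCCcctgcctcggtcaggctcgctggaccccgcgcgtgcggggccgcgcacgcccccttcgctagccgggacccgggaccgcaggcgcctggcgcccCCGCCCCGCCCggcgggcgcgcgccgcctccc
The Ago3 window holds 4 copies of the motif on either strand and the Ago4 window 5, where neighbouring copies may overlap and are then printed as 1 run. At least 1 copy occurs in 32.7% of the 32851 RefSeq promoter windows of the same length, some of which belong to the same gene. G and C make up 73.6% of the Ago3 window and 85.6% of the Ago4 window, against a median of 52.4% over all windows. The Ago3 window holds 27 CpG dinucleotides and the Ago4 window 46. A match describes these letters and is not evidence of binding.

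The comparison of the groups asked whether Argonaute messenger RNA differs between controls and Dicer knockouts described as depleted of microRNAs. On average both genes had higher values in the knockouts than in the controls, Ago3 by 0.21 and Ago4 by 0.30 log2 units. Neither difference passed the threshold over all genes, and the knockout and control values of both genes overlapped. One control array, control 4, had the lowest value of all 9 arrays at both genes. More cells that express a gene and more of its RNA per cell cannot be told apart in such bulk tissue.

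The table is on the log2 scale as the authors deposited it, with array medians between 7.61 and 7.75. Control 4 stood apart from the other controls across the table, with 448 of 12188 genes at least 1 log2 unit from the mean of controls 1 to 3. The same count against the rest of the own group was 14, 18 and 30 for controls 1 to 3 and 5 to 64 for the knockouts. The changes of both genes are therefore given with and without control 4. The level of Dicer1 and markers of the tissue could not be checked, because the identifiers were not paired with symbols here. The labels of genotype, tissue and sex therefore stand unchecked. Between control males and control females 0 of 12188 genes passed the threshold over all genes, so no such gene backs the sex labels. Whether the table holds sex-specific genes was not checked.

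For Ago3 the knockout values were 5.19 in knockout 5, 5.19 in knockout 7, 5.26 in knockout 9, 5.20 in knockout 10 and 5.46 in knockout 11, all on the log2 scale. The control values were 4.98, 5.21, 5.11 and 4.90 log2 units in controls 1 to 4. Knockout 11 was the highest array, 4 knockouts lay within 0.072 log2 units of each other, and control 2 lay among these 4. Knockouts 9 and 11 were above every control and controls 1, 3 and 4 below every knockout. The means were 5.26 ± 0.11 (SD, n = 5) in the knockouts and 5.05 ± 0.14 (SD, n = 4) in the controls. The log2 change was thus 0.21 (SE 0.09, 95% interval 0.02 to 0.40), or 1.16-fold, with an adjusted p of 0.103 (limma, two-sided, Benjamini-Hochberg over 12188 genes). Without control 4 the log2 change was 0.16 with a limma adjusted p of 0.203. Without knockout 11 it was also 0.16, with a limma adjusted p of 0.204.

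For Ago4 the knockout values were 7.08 in knockout 5, 7.03 in knockout 7, 7.29 in knockout 9, 7.31 in knockout 10 and 7.25 in knockout 11, on the log2 scale. The control values were 7.04, 7.08, 6.97 and 6.46 log2 units in controls 1 to 4. Knockouts 9, 10 and 11 were above every control, while knockouts 5 and 7 lay at the level of controls 1 and 2. Knockout 5 and control 2 had the same value to the last deposited digit, as 2 or more arrays did at 24.4% of all genes. The means were 7.19 ± 0.13 (SD, n = 5) in the knockouts and 6.89 ± 0.29 (SD, n = 4) in the controls. The log2 change was 0.30 (SE 0.13, 95% interval 0.02 to 0.59), or 1.23-fold (limma adjusted p = 0.114). The difference was smaller without control 4: the other controls were at 7.03 ± 0.05 (SD, n = 3), the log2 change was 0.16 (95% interval -0.02 to 0.35) and the limma adjusted p 0.186. Without knockout 7, which lay lowest among the knockouts, the log2 change was 0.34 with a limma adjusted p of 0.103.

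**Figure D1:**
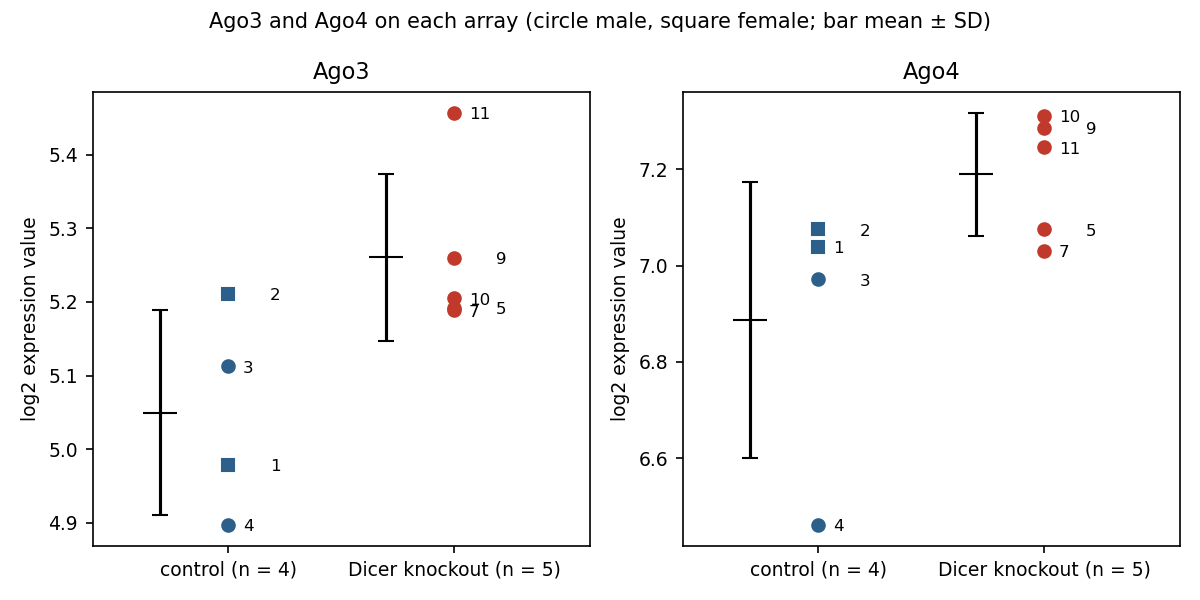
Log2 expression values of Ago3 and Ago4 on each of the 9 arrays, numbered by replicate, with circles for embryos labelled male and squares for female. Bars show the mean and SD of the 4 controls and the 5 Dicer knockouts. Control 4 is the lowest array in both panels, at 4.90 and 6.46, and the groups overlap in both.

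Against the rest of the table, 24.6% of the 12188 genes were called at an adjusted p under 0.05 in either direction and 11% were called higher in the knockout, where 0 of the 2 Argonaute genes were called (limma). At an unadjusted p under 0.05 in limma both passed, as did 36.7% of all genes, 16.4% in the higher direction. The means of 47.2% of all genes were higher in the knockout. An exact two-sided permutation test of each gene alone over all ways to split the 9 arrays gave p = 0.0317 for Ago3 and p = 0.0556 for Ago4. Which gene fell under 0.05 depended on the scaling of the arrays: after quantile normalization the exact p was 0.0714 for Ago3 and 0.0317 for Ago4, and after subtraction of array medians 0.0317 and 0.0159. The smallest p this design allows is 0.00794. Without control 4 the exact permutation p was 0.143 for Ago3 and 0.107 for Ago4, where the smallest possible is 0.0179. For 24.1% of all genes the knockout and control values did not overlap, and neither Argonaute gene was among them.

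Signal on an array depends on the probes, so the values of Ago3 and Ago4 are not compared as amounts of RNA. Ago3 had a mean value above 15.2% of the genes, in the lowest of 4 equal level bins of the table, where 5.64% of genes were called. Its change was larger in size than that of 80.0% of the genes of that bin, and its pooled SD within groups was 0.125 log2 units, against a median of 0.161 over the bin. Ago4 had a mean value above 38.0% of the genes, in the bin above, where 23.5% were called. Its change exceeded that of 72.4% of that bin in size, and its pooled SD was 0.211 log2 units, against a median of 0.16 over the bin. Among all genes 17.4% had a larger positive change than Ago3 and 11.3% a larger one than Ago4.

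**Figure D2:**
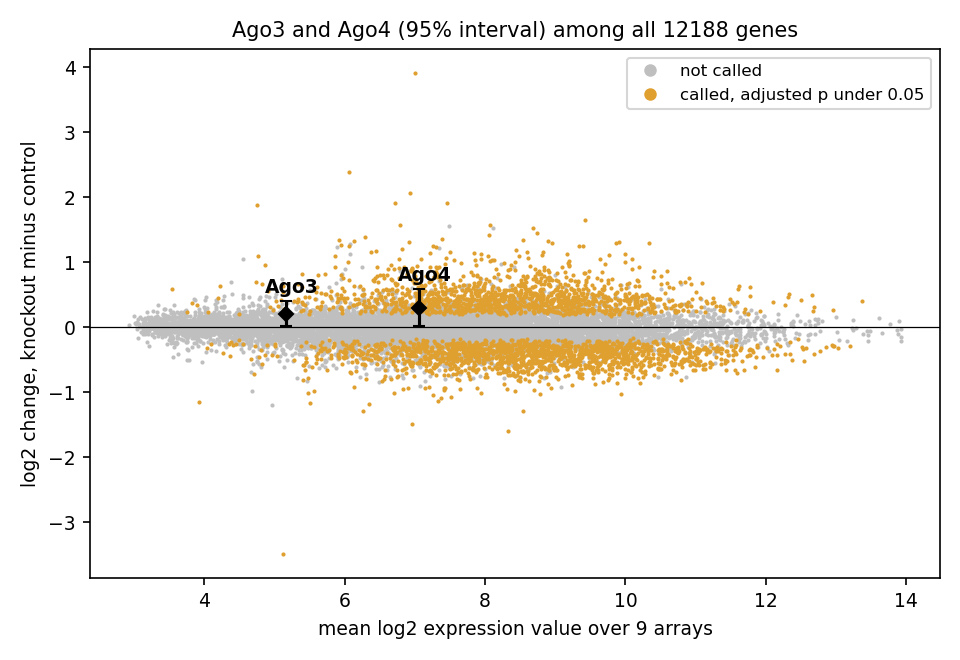
Log2 change between knockout and control against the mean log2 value over 9 arrays for all 12188 genes, with called genes in orange. Diamonds mark Ago3 at 0.21 and Ago4 at 0.30 log2 units with their 95% intervals. Both lie above 0 toward the left of the plot, and neither was called.

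Because every knockout was labelled male, the genes were also compared with the control males alone, in a limma fit with knockout males, control males and control females as 3 groups. Ago3 had 5.00 ± 0.15 (SD, n = 2) log2 units in the control males and 5.09 ± 0.16 (SD, n = 2) in the control females. Ago4 had 6.72 ± 0.36 (SD, n = 2) in the control males, which include control 4, and 7.06 ± 0.03 (SD, n = 2) in the control females. Against the control males the log2 change of Ago3 was 0.26 (SE 0.11) with a limma adjusted p of 0.149. Ago4 was 1.39-fold higher (log2 change 0.47, SE 0.14; limma adjusted p = 0.0585). Again 0 of the 2 genes were called, where 10.5% of all genes were. Both passed an unadjusted p under 0.05 in limma, as did 30.8% of all genes, 12.4% in the higher direction. Without control 4 the contrast rests on control 3 as the lone control male, whose spread is assumed to be that of the other groups. The log2 change of Ago4 was then 0.22 and that of Ago3 0.15. Without control 3, which leaves control 4 as the lone control male, Ago4 had a log2 change of 0.73. For fits with a lone control male only the size of the change is given. Between control males and control females Ago4 differed by -0.34 log2 units (limma adjusted p = 0.676) and Ago3 by -0.09 (limma adjusted p = 0.88). That comparison called 0 of 12188 genes. With so few arrays it does not show that either gene is alike in both sexes.

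The shifts of both genes were then set side by side on each array. From the mean of the controls, control 4 was 0.15 log2 units lower at Ago3 (-0.15) and 0.43 lower at Ago4 (-0.43). Knockout 11 was 0.41 higher at Ago3 and 0.36 higher at Ago4. Knockouts 9 and 10 were 0.40 and 0.42 higher at Ago4 but 0.21 and 0.16 higher at Ago3. All 5 knockouts were above the control mean at both genes, and so were control 2, by 0.16 at Ago3 and 0.19 at Ago4, and control 3, by 0.06 and 0.08.

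The within-array difference of Ago4 minus Ago3 cancels what scales a whole array alike. It was 1.93 ± 0.13 (SD, n = 5) log2 units in the knockouts and 1.84 ± 0.20 (SD, n = 4) in the controls. The change of Ago4 thus exceeded that of Ago3 by 0.09 log2 units (95% interval -0.17 to 0.36), with p = 0.5 in an exact two-sided permutation test over all splits of the arrays. The genes were not shown to change by different amounts, and the interval leaves room for a gap of either sign. Without control 4 the excess was 0.0012 log2 units (exact permutation p = 0.982). Among males only, chosen after seeing the data, it was 0.22 (exact permutation p = 0.19, where 0.0476 is the smallest that 5 arrays against 2 allow).

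Likeness of 2 genes over the 9 arrays was measured as the root mean square difference of their log2 values, each centred on its own mean. Ago3 and Ago4 differed by 0.155 log2 units in this measure. Of the 12187 other genes, 2.53% were nearer to Ago4 than Ago3 was, and 12.7% were nearer to Ago3 than Ago4 was. The measure favours genes with little spread and both genes share the array scaling. The genes nearest to each cannot be named here, as their identifiers have no paired symbol.

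**Figure D3:**
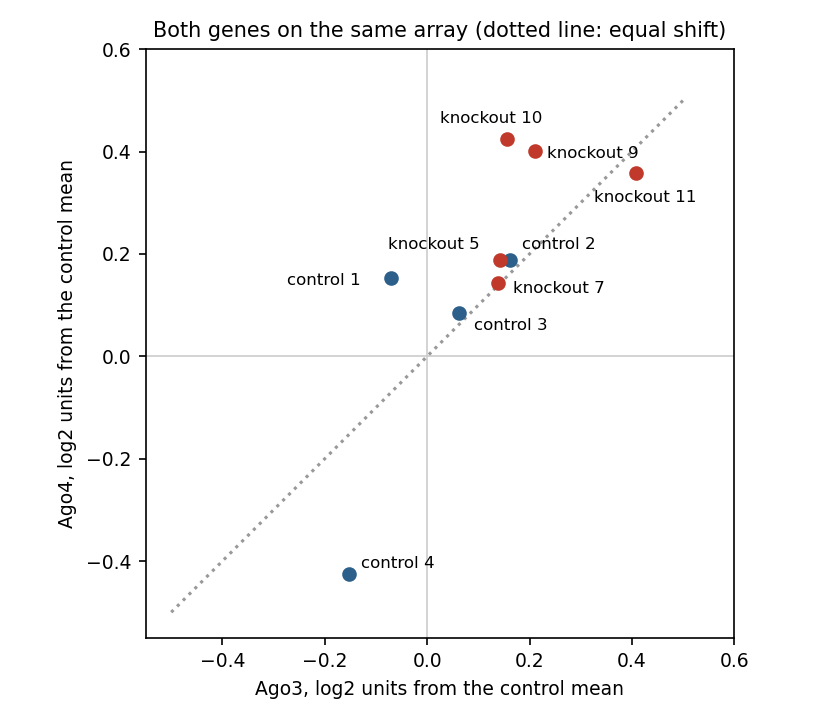
Shift of Ago4 against the shift of Ago3 on each array, both in log2 units from the mean of the 4 controls, with controls in blue, knockouts in red and equal shifts on the dotted line. Control 4 lies alone at the lower left, and the 5 knockouts and controls 2 and 3 lie to the upper right of the control mean.

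Across the alternative fits of knockout against control that could test them, both genes kept higher means in the knockout. The log2 change of Ago3 ran from 0.16 to 0.26 and that of Ago4 from 0.16 to 0.47, the lowest being without control 4 for both genes. Ago3 passed an adjusted p under 0.05 in 1 fit, with arrays weighted by their spread (log2 change 0.22, limma adjusted p = 0.0492). That fit called 4562 of 12188 genes, against 2997 without weights. Ago4 passed in none of these fits. In the separate fits that kept both control males, Ago4 passed only after subtraction of array medians (log2 change 0.52, limma adjusted p = 0.0441), where 1324 of 12188 genes were called.

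**Figure D4:**
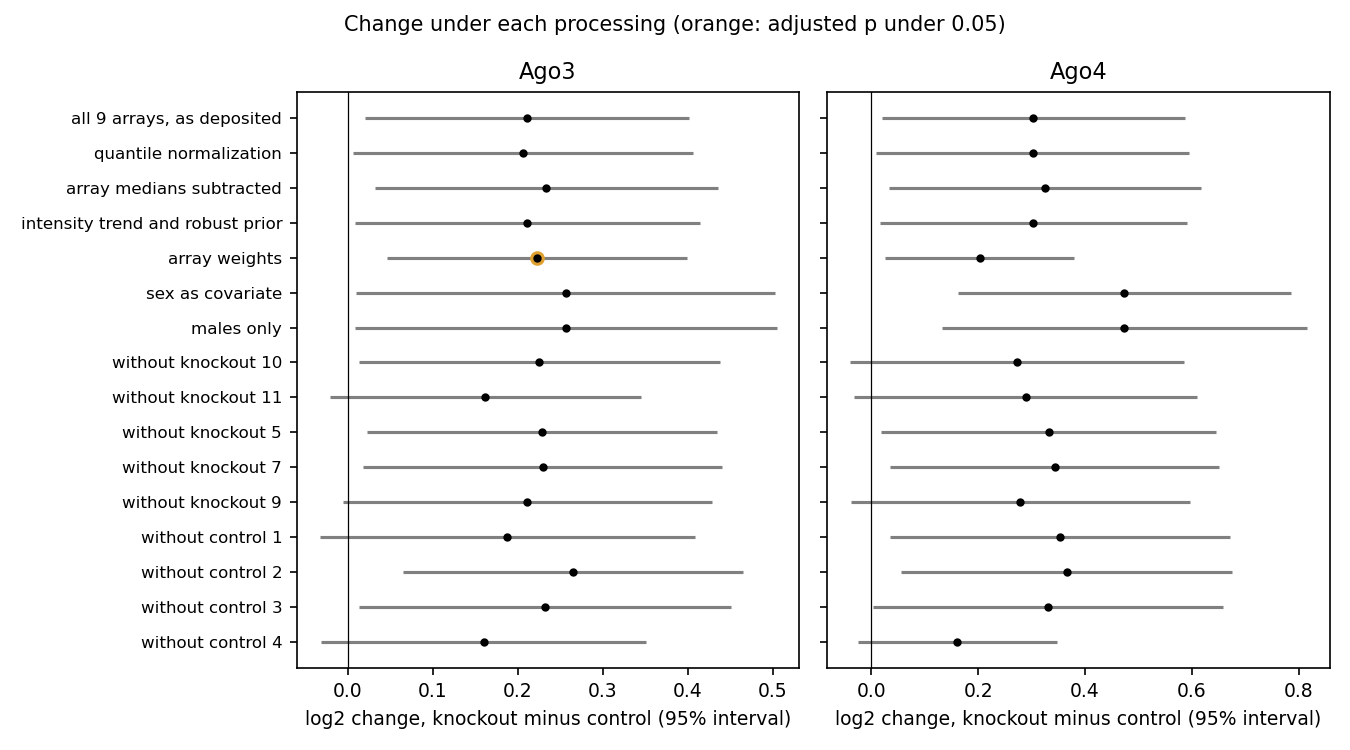
Log2 change of Ago3 and Ago4 between knockout and control with its 95% interval under each processing or with 1 array left out. The orange point marks the fit with an adjusted p under 0.05, array weights for Ago3. Every point lies above 0, and the Ago4 estimate without control 4 is 0.16.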

How the data were processed

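Biotin-labelled total RNA from 9 embryos, purified on columns per the labels' protocols, was measured on 1 array each. The authors deposited log2 values, 1 per Ensembl gene identifier, made with the affy package per the submitters' processing notes. Background correction, normalization, summarization and array type were not stated in the sources, and dim genes tend to show compressed changes. No detection call came with the values, and 0 columns lacked a sample.

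All 12188 genes were fitted with limma 3.58.1 in R 4.3.3 (lmFit, eBayes), knockout against control with no covariate, and in a second fit with knockout males, control males and control females as groups. Calls used a Benjamini-Hochberg adjusted p under 0.05 over all genes, two-sided. Single values were tested exactly over all splits of the arrays, 1 pair of genes among them. The interval of the difference between the genes' changes is a pooled-variance interval. The fit was tested on simulated data.

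The members, lists and tests were chosen with earlier results of these data known. None of the 49997 RefSeq genes used for naming (GRCm38.p6) has an Ensembl identifier (0), so 12 planned lists (219 entries: partners of Argonaute proteins, markers of cell types), the locus neighbours and the genes of like profile were left without values. The rule on named genes thus left only the members. Alternatives were quantile normalization, median subtraction, a filter on the dimmest 50% of genes, an intensity trend with robust prior, array weights, sex as covariate, males only and each array left out. The number of arrays limits the precision.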

Additional observations from a re-analysis of the deposited data

Results flagged for a closer look

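Within each group the highest and lowest array of Ago3, Ago4 and their within-array difference were tested for standing apart, 6 tests of which 2 passed, and chance passes about 1 in 20. Ago4 in control 4, at 6.461 log2 units, lay 0.510 below the next control, a gap of 0.831 of the range of the controls, just past the 95% limit of Dixon's test for 4 arrays. The same array was the lowest control at Ago3 (4.90), with a gap of 0.26 of the range. At Ago4, 11.1% of all genes deviated further in control 4 from the mean of controls 1 to 3, and at Ago3 41.4% did. Ago3 in knockout 11, at 5.457 log2 units, lay 0.197 above the next knockout, a gap of 0.733 of the range, just past the limit for 5 arrays. At Ago4 knockout 11 (7.25) lay inside the range of the knockouts.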

How the results depend on the processing

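Knockout against control kept its sign at both genes in all 18 alternatives each, of which 2, the exact test under other scalings, were added after seeing the data. Several of these share an estimate and so could not differ in sign. The exact test and the intensity trend fit share that of the fit on all arrays as deposited, and sex as covariate shares that of males only. Ago3 passed with array weights (0.22, limma adjusted p = 0.0492, where its alternatives ran from 0.0492 to 0.224). Ago4, at 0.30, passed an unadjusted 0.05 in limma (p = 0.0388) but not in the exact permutation test (p = 0.0556), though it did so in that test after quantile normalization (p = 0.0317) and median subtraction (p = 0.0159). Ago3 passed the exact permutation test as deposited and after median subtraction (p = 0.0317 in both), not after quantile normalization (0.21, p = 0.0714). Without control 4 neither gene passed that test on the deposited values. With each array left out the change ran from 0.16 to 0.26 for Ago3 and from 0.16 to 0.37 for Ago4. Against control males, with both of them kept, Ago4 passed only after subtraction of array medians (0.52, limma adjusted p = 0.0441), where 1324 of 12188 genes were called. Without control 3, which leaves 1 control male, its log2 change was 0.73. With each array left out it ran from 0.22 to 0.73 and Ago3 from 0.15 to 0.36. The difference between the genes ran from 0.0012 to 0.17 with each array left out, and was 0.22 among males only. For these changes the cause was not tested. The fit with sex as covariate is the same as that against control males, and leaving out a control female there leaves the males alone. Both genes are among the dimmest 50% of genes, so leaving those out gave no value for them. The fixed lists gave no values under any setting. No paired analysis was possible because the labels do not say which embryos are littermates. Counts over all genes fell from 2997 to 324 with males only, rose to 4562 with array weights and to 3263 without control 4, and fell to 1976 without control 1.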
